A study of Mus musculus with 2 samples.

Results

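NADPH oxidase subunits were followed through 12458 single cells of mouse tumours and lymph nodes. The members are Cybb, Cyba, Ncf1, Ncf4 and Rac2, chosen by symbol, and they are 5 of the 12638 genes measured. The choice applied no cut on measured values, but earlier results of these data were known when it was made.

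The cells were CD45+ leukocytes, sorted with an enrichment of dendritic cells (DC) and profiled by droplet 5′ RNA sequencing, from 4 C57Bl6 mice that carried MC38-OVAdim cells under the skin of the flank. MC38 is a mouse colon carcinoma line, here with ovalbumin as a model antigen. The controls, WT1 and WT2, carried floxed Havcr2 alleles (Havcr2fl/fl), and in KO1 and KO2 the gene, which encodes the inhibitory receptor TIM-3, was knocked out. Each mouse gave its tumour, the lymph node draining it (dLN) and another node that does not (ndLN), 12 samples in all, run in 2 droplet channels with WT1 and KO1 in the first and WT2 and KO2 in the other. The driver of the deletion and the ages of the mice are not given in the sources used. All 4 mice bore tumours, so no tumour-free tissue served as a baseline.

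The phagocyte NADPH oxidase moves electrons from NADPH across a membrane onto oxygen and so makes superoxide, which phagocytes use to kill microbes. Its membrane core is flavocytochrome b558, made of gp91phox (Cybb) and p22phox (Cyba). On activation cytosolic subunits, among them p47phox (Ncf1) and p40phox (Ncf4), and a Rac GTPase, in blood cells mostly Rac2, move to the membrane and complete the enzyme. In dendritic cells the same enzyme is known to raise the pH of phagosomes, which slows the degradation of antigen. Rac2 also acts outside the oxidase, in the actin cytoskeleton of lymphocytes and myeloid cells.

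Samples held 473 to 1691 cells and 3031124 to 28498154 UMIs (counted molecules), with medians of 4520 UMIs per cell in dLN, 4633 in ndLN and 15191 in the tumour. By marker genes, 10732 cells were gated into 14 classes named after the type they resemble, and 1056 cells passed no gate. A further 669 T-like cells could not be split into subsets. The gates picked cells with their own markers: Siglech, for one, was found in 100% of plasmacytoid DC-like (pDC-like) cells. Since cells were sorted, shares of classes were set by the sort and are not compared. Levels are UMIs per 10000 UMIs of a cell, averaged over the cells of a class in 1 mouse. Each summary is a mean ± SD over mice with at least 20 such cells. For conventional type 1 and type 2 DC-like cells at least 10 were asked. Levels are compared between classes of cells and never between genes. Havcr2 itself, the check of the genotypes, stood at 0.0697 and 0.0315 in tumour macrophage-like cells of KO1 and KO2, against 0.642 in WT1 and 0.576 in WT2. In cDC1-like cells of dLN it was 0 and 0.0228 in the KO mice against 1.30 and 1.25. In tumour monocyte-like cells the KO mice still held 0.836 and 0.707, against 1.07 and 1.56 in the WT mice (limma, difference of -0.30 on the log2 scale, unadjusted p = 0.00309, adjusted p = 0.974 over all genes). Both KO mice lay below both WT mice there too. Tumour CD8 T-like cells held 1.37 and 0.655 in KO1 and KO2, against 1.60 in WT1.

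Cybb encodes gp91phox, the subunit that carries the flavin and the haems. Among classes summarised over mice its level was highest in pDC-like cells and tumour monocyte-like cells and lowest in conventional type 1 DC-like (cDC1-like) and T-like cells. In pDC-like cells of ndLN it was 6.72, 6.45, 7.06 and 7.60 UMIs per 10000 in KO1, KO2, WT1 and WT2. In those of dLN it was 6.73, 5.99, 6.57 and 6.45. Values of the 2 nodes overlapped. Tumour monocyte-like cells held 6.75, 5.27, 7.005 and 4.95 in the same order, a range that overlapped that of pDC-like cells of dLN. Tumour macrophage-like cells held 4.40, 3.83, 3.67 and 3.21, and all 4 mice lay below the lowest monocyte-like value.

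Of the conventional DC classes, only the type 2 class held Cybb above background. Conventional type 2 DC-like (cDC2-like) cells of dLN held 2.80, 2.68, 3.01 and 2.57 UMIs per 10000, below every value of macrophage-like cells. B-like cells of dLN held 1.76, 1.91, 2.09 and 1.87, with no overlap with cDC2-like cells of that node. This order was not resolved in ndLN, where cDC2-like cells held 2.96 ± 1.07 (SD, n = 4), from 1.77 to 4.08. That range overlapped those of tumour macrophage-like cells (3.21 to 4.40) and of B-like cells of ndLN (1.67 to 2.38). In 150 cDC1-like cells of dLN only 2 UMIs of Cybb were found, and in 104 such cells of ndLN none, which allows, by a limit of 3 counts, up to 0.0165 UMIs per 10000 and a share of up to 2.88% of cells with a UMI (3.48% by the exact 95% interval). These were among the deepest cells of the nodes, with medians of 18125 and 18313 UMIs. As a class expected to lack Cybb, CD8 T-like cells of dLN gave the background: 10 of 1021 (0.979%, exact 95% interval 0.471 to 1.79%) held a UMI at a median of 5371 UMIs. The few UMIs of cDC1-like cells are read as background too. Intervals and limits here cover counting error only. Mature DC-like cells, which carry Ccr7 and Fscn1, held 0.0691 ± 0.0455 (SD, n = 4) in ndLN and 0.344 ± 0.307 (SD, n = 4) in dLN, where the mice fell apart as described with the genotypes.

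Smaller classes of the tumour were pooled over mice: UMIs of a gene were summed over cells and divided by all their UMIs. Deep cells weigh more in such a pooled level, so it is not the same measure as a mean over mice. Nonclassical monocyte-like cells, which patrol vessels, held 13.4 UMIs of Cybb per 10000 in 52 cells (exact Poisson 95% interval 12.1 to 14.7). Averaged over cells as elsewhere, their 4 mice held 12.7, 14.3, 13.8 and 14.8. These values lay above the means of all classes with a summary over mice, although KO2 and WT2 gave under 10 cells each. Neutrophil-like cells held 1.76 (1.19 to 2.52) over 56 cells with a median of only 2081 UMIs. In WT1 and WT2, the mice with 10 or more neutrophil-like cells, the level was 0.513 and 0.707, under every value of B-like cells, while the 5 such cells of KO2 held 2.99.

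Cyba, which encodes p22phox, the partner that gp91phox needs to be stable, was found in every class and tissue summarised. Among classes summarised over mice it was highest in tumour macrophage-like cells, at 22.8, 22.1, 21.3 and 20.4 UMIs per 10000, and in tumour monocyte-like cells, at 21.4, 22.9, 21.2 and 20.1. Both ranges overlapped. The 52 nonclassical monocyte-like cells of the tumour, pooled, held 25.7 (exact Poisson 95% interval 24.0 to 27.5). Mature DC-like cells followed with 18.4 ± 0.750 in ndLN (SD, n = 4) and 20.6, 14.7, 17.3 and 19.0 in dLN, although their Cybb was near the low end. In pDC-like cells of dLN the level was 10.99 ± 0.929, in cDC1-like cells 9.13 ± 0.712 and in B-like cells 7.80 ± 0.346 (SD, n = 4 each). Those of cDC2-like cells spread from 5.47 in WT2 to 12.7 in WT1. CD8 T-like cells of dLN held the lowest mean, 4.49 ± 0.321 (SD, n = 4). Order in the middle of this list is not resolved, because neighbours overlapped between mice.

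**Figure D1:**
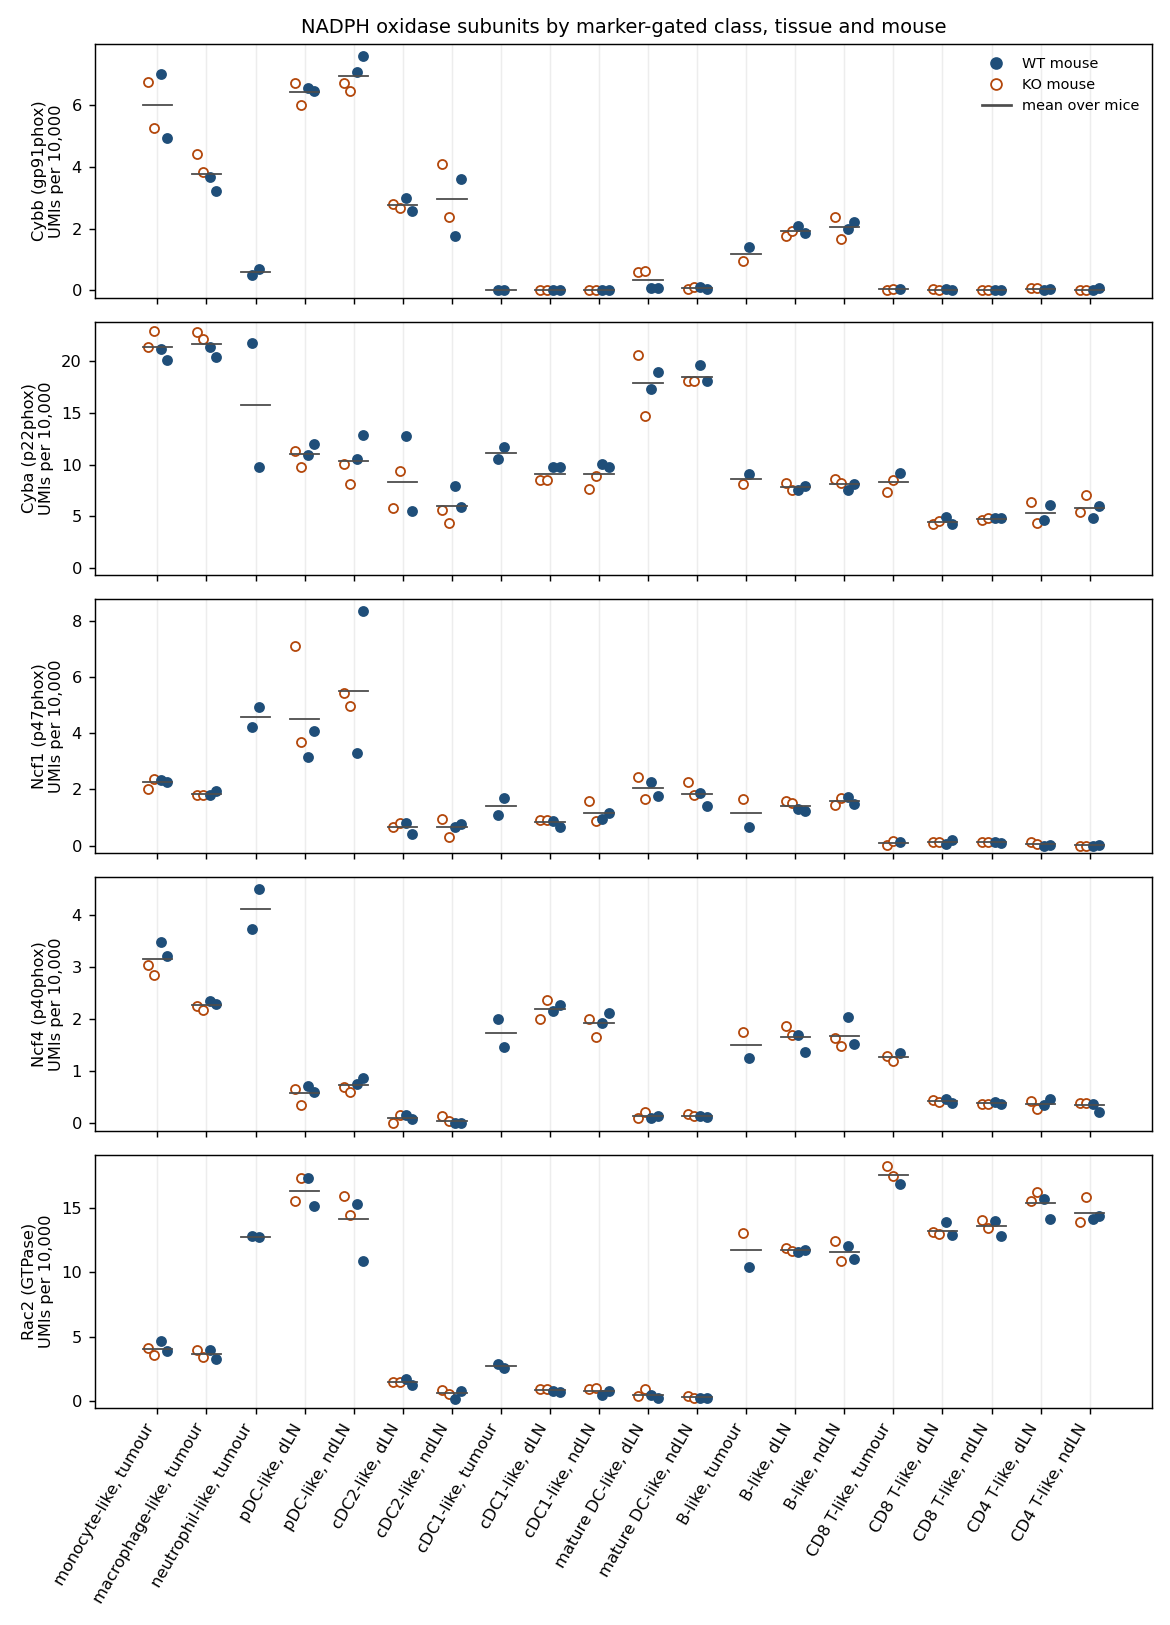
Level of each subunit (UMIs per 10000, mean over the cells of 1 mouse, linear axes) by class and tissue, 1 point per mouse (WT filled, KO open) with the mean over mice as a line. Cybb lies between 5.99 and 7.60 in pDC-like cells and near 0 in cDC1-like and T-like cells, while Rac2 is high in T-like, B-like and pDC-like cells.

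The cytosolic subunits had patterns of their own. Ncf1 encodes p47phox, the organiser whose phosphorylation starts assembly. Its levels in pDC-like cells were 7.09, 3.69, 3.14 and 4.10 in dLN and 5.43, 4.97, 3.31 and 8.35 in ndLN. The mice overlapped, and the spread between them was wide. Neutrophil-like cells held 4.23 and 4.94 in WT1 and WT2. Monocyte-like and macrophage-like cells of the tumour held 2.25 ± 0.155 and 1.84 ± 0.0783 (SD, n = 4 each), and mature DC-like cells of dLN 2.04 ± 0.380. In CD8 T-like cells of dLN the level was 0.126 ± 0.0525, and in CD4 T-like cells 0.0541 ± 0.0564. Ncf1 overlaps Gtf2ird2 on the other strand, and whether the counting used strand is not stated in the labels.

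Ncf4 encodes p40phox, which binds a phosphoinositide of phagosome membranes. In both nodes it separated cDC1-like from cDC2-like cells the other way round from Cybb. In cDC1-like cells of dLN it was 1.99, 2.36, 2.15 and 2.27, close to the 2.25, 2.18, 2.34 and 2.28 of tumour macrophage-like cells, which these values overlapped. In cDC2-like cells of dLN it was 0, 0.161, 0.163 and 0.0758, and no mouse came near its own cDC1-like value. Mature DC-like cells of dLN held 0.144 ± 0.0546 and pDC-like cells 0.584 ± 0.165 (SD, n = 4 each). The highest means were those of neutrophil-like cells, at 3.73 and 4.50, and tumour monocyte-like cells, at 3.04, 2.84, 3.48 and 3.21. The low Ncf4 of cDC2-like cells was seen in the nodes: 17 cDC2-like cells of the tumour, pooled, held 1.95 (exact Poisson 95% interval 1.41 to 2.64), a number of cells too small for a test.

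Rac2 encodes the GTPase of the complex. Among classes summarised over mice its highest mean was in tumour CD8 T-like cells, at 18.3, 17.5 and 16.9 in KO1, KO2 and WT1. The 69 regulatory T-like cells of the tumour, pooled, held 19.3 (exact Poisson 95% interval 18.1 to 20.5). In pDC-like cells of dLN it was 15.6, 17.3, 17.3 and 15.1, which overlapped that range, and in CD4 T-like cells of dLN 15.4 ± 0.910 (SD, n = 4). CD8 T-like cells of dLN held 13.2 ± 0.497 and B-like cells 11.7 ± 0.122 (SD, n = 4 each). Neutrophil-like cells of WT1 and WT2 held 12.8 and 12.7. Below these came a gap: monocyte-like cells of the tumour held 4.05 ± 0.449 and macrophage-like cells 3.65 ± 0.355. Conventional DC of the nodes lay lower still, at 1.48 ± 0.197 in cDC2-like and 0.852 ± 0.126 in cDC1-like cells of dLN, and mature DC-like cells were lowest, at 0.476 ± 0.305 in dLN and 0.271 ± 0.0826 in ndLN. Every mouse had less Rac2 in its monocyte-like, macrophage-like, cDC1-like, cDC2-like and mature DC-like cells than in its T-like, B-like and pDC-like cells.

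**Figure D2:**
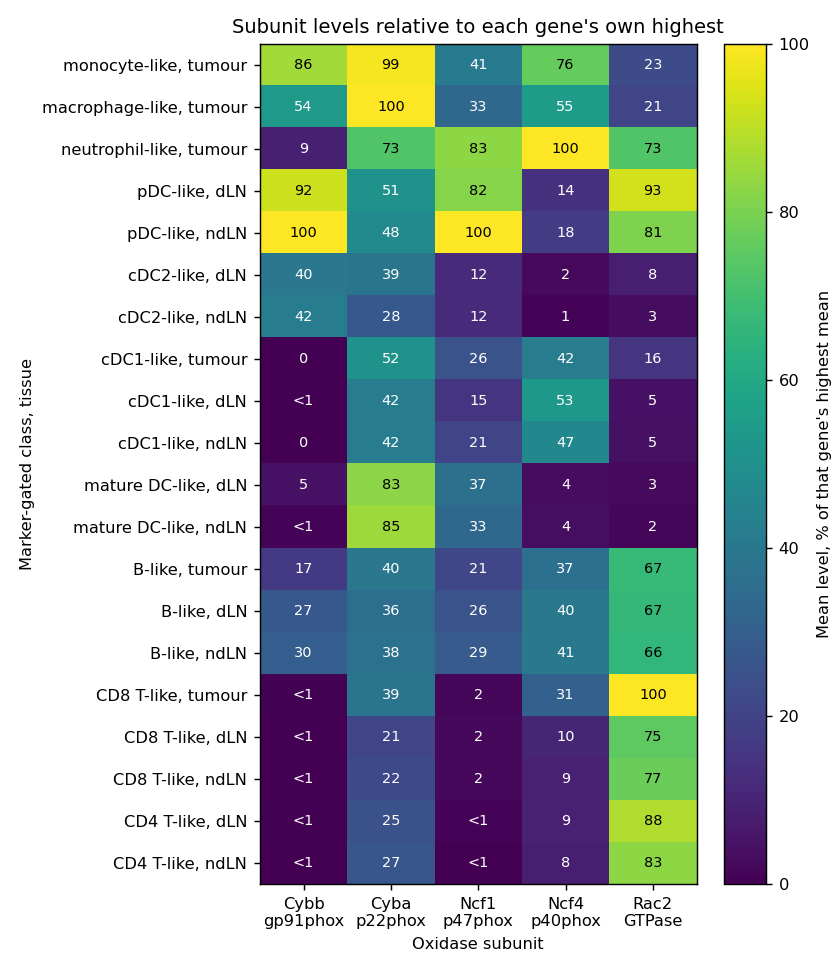
Mean level of each subunit in each class and tissue, as a percentage of that gene's own highest mean (colour and number). The pDC-like cells of both nodes lie near the top for Cybb, Ncf1 and Rac2, and no class is near the top for all 5 genes.

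How many subunits a single cell showed was counted after each cell was thinned to 1000 UMIs, since classes differ in depth. Neutrophil-like cells showed 2.29 ± 0.0843 of the 5 members (SD, n = 2), pDC-like cells of dLN 2.20 ± 0.0791, tumour monocyte-like cells 2.02 ± 0.0717 and macrophage-like cells 1.80 ± 0.0546 (SD, n = 4 each). B-like cells of dLN showed 1.68 ± 0.0289, above cDC1-like cells at 1.00 ± 0.225 and cDC2-like cells at 0.877 ± 0.263. CD8 T-like and CD4 T-like cells of dLN showed 1.13 ± 0.0580 and 1.20 ± 0.0677, in ranges that overlapped those of both conventional DC classes. In thinned B-like cells of dLN, Rac2 was seen in 68.1%, Cyba in 52.6% and Cybb in 16.7% of cells. At this depth 4 or 5 members were found in 9.88% of pDC-like cells of ndLN and 5.12% of those of dLN. The share was 8.27% in neutrophil-like, 7.44% in monocyte-like and 4.00% in macrophage-like cells, and 0 in the cDC1-like and cDC2-like cells counted. Tumour cDC2-like cells and tumour cDC1-like cells of the KO mice were too few per mouse to be counted. Such counts depend on levels and on the fixed depth, so a subunit not seen in a cell is not shown to be absent.

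In the genome (mm10, GENCODE M21), Cybb lies at chrX:9435252-9487771 on the minus strand, Cyba at chr8:122424776-122432930 (minus), Ncf1 at chr5:134220053-134229625 (minus), Ncf4 at chr15:78244801-78262580 (plus) and Rac2 at chr15:78559167-78572783 (minus). All 5 are protein-coding. Ncf4 and Rac2 both lie on chromosome 15, 296.586 kb apart. In the order for Ncf4 cDC1-like cells of dLN were high, and in that for Rac2 they were near the low end. Cyba overlaps a gene model on the other strand, Gm20388, which was not measured.

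Upstream sequence is shown for Cybb and Ncf1, which were both high in pDC-like cells, and for Cyba as the more widely expressed partner. Each is the 250 bases before the RefSeq start of the gene (GRCm38.p6), written 5′ to 3′ on the gene's own strand, at chrX:9469325-9469574 for Cybb, chr8:122432941-122433190 for Cyba and chr5:134229626-134229875 for Ncf1. The window of Cybb lies within the longer GENCODE gene. RefSeq starts of Ncf4 and Rac2 were not used here. Capitals mark matches on either strand to GAAANNGAAA, a spaced repeat of the kind that interferon regulatory factors such as IRF8 bind.
Cybb: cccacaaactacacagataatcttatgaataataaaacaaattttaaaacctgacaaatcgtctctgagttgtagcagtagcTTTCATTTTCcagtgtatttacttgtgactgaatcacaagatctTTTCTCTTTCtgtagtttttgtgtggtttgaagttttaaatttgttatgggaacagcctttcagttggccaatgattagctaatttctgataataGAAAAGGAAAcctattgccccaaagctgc
Cyba: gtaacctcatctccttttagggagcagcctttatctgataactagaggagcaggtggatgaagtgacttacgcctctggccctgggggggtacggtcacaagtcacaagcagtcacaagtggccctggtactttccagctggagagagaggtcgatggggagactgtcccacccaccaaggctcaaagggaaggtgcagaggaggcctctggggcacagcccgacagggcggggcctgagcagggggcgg
Ncf1: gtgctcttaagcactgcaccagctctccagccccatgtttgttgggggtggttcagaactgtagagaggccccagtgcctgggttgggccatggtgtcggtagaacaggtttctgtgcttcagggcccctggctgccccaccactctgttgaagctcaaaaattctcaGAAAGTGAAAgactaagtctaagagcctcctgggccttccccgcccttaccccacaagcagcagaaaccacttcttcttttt

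Cybb held 3 matches, Ncf1 held 1 and Cyba 0. Of 32851 promoter windows of the same length, 978 (2.98%) held a match and 4 held 3 or more. Matches in Cybb began at -168 and -124 on the opposite strand and at -29 on the gene's strand, counted from the start, and that in Ncf1 at -82. The core letters GGAA, which factors of the ETS family such as PU.1 (Spi1) contact, occurred 3 times in Cybb, 2 times in Cyba and 1 time in Ncf1, and in 93.4% of all windows. GAGGAA was in 23.3% of windows and GGAANNGAAA in 2.30%, and neither was in the 3 shown. GAAANNGAAA and GGAANNGAAA can share bases, and GAGGAA holds GGAA. A match describes letters, not a bound site. Irf8 and Cybb differed in opposite directions in cDC2-like minus cDC1-like cells of dLN (-3.89 and 1.51 on the log2 scale, limma). So they did in cDC2-like minus mature DC-like (-1.38 and 1.29) and cDC2-like minus B-like cells (-1.15 and 0.55). They differed in the same direction in cDC2-like minus pDC-like cells (-4.63 and -1.17) and in B-like minus CD8 T-like cells (1.46 and 0.95). In the tumour, Irf8 did not pass in macrophage-like minus monocyte-like cells (limma, -0.11, adjusted p = 0.146; Cybb -0.38). Nor did it in macrophage-like minus CD8 T-like cells (limma, -0.07, adjusted p = 0.587; Cybb 2.01). Over mice with at least 20 cells of a class, the mean level of Irf8 in dLN was 33.2 UMIs per 10000 in pDC-like cells. It was 19.7 in cDC1-like and 0.791 in cDC2-like cells.

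Tests between classes took the per-mouse mean of log2(1 + UMIs per 10000), with the mouse as a term, in limma, and a difference is in that unit. Pseudocount 1 makes the differences of low genes smaller than their log2 ratios. Adjusted p-values are Benjamini-Hochberg values over all genes of a comparison, called at 0.05. They rest on the spread between 3 or 4 mice, which limma draws towards a trend fitted over all genes. Very small p-values thus lean on that shared spread and not on the mice of the gene alone.

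In the tumour, macrophage-like cells held less Cybb and less Ncf4 than monocyte-like cells of the same mice. Cybb was lower by a difference of -0.38 (SE 0.0777, adjusted p = 7.92e-04) and Ncf4 by -0.30 (SE 0.0583, adjusted p = 4.52e-04), each in 4 of 4 mice. Ncf1 (-0.13, adjusted p = 0.0599), Rac2 (-0.09, adjusted p = 0.274) and Cyba (-0.01, adjusted p = 0.956) did not pass. So 2 of 5 members passed, where 52.5% of all genes tested did, and the members' share was not above that background. A list of 22 other measured genes of oxidase assembly and regulation was read beside the members. Of these 21 were tested here, 3 were higher and 10 lower, with a median difference of -0.08 against 0.02 over all genes. Those lower included Prdx6, a peroxiredoxin that aids the oxidase (-1.28), Prkcd, a kinase that phosphorylates p47phox (-0.73), and Rac1, the other Rac GTPase (-0.39). Hvcn1, the proton channel that balances charge, was higher (0.24, adjusted p = 1.01e-05).

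Against tumour CD8 T-like cells, macrophage-like cells of KO1, KO2 and WT1 held more of 4 members and less Rac2. Differences were 2.01 for Cybb (SE 0.0762, adjusted p = 4.85e-08), 1.44 for Cyba, 1.21 for Ncf1 and 0.57 for Ncf4 (adjusted p = 1.60e-04), and -2.02 for Rac2 (SE 0.0858, adjusted p = 1.00e-07). All 3 mice showed each direction. This was 5 of 5 members, with 41.7% of all genes called. Among 21 pathway genes 6 were higher, among them Prkcd (1.06) and Pak1, a kinase downstream of Rac (0.58), and 6 lower, among them Arhgdib, which holds Rac GTPases in the cytosol (-0.77), and Dock2, a Rac activator of leukocytes (-0.40). The median was 0.03 against 0.01 over all genes. Thinned to 1000 UMIs per cell, Ncf4 no longer passed (0.22, adjusted p = 0.119).

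The pair of conventional DC classes of dLN gave opposite directions for 2 subunits. In KO1, KO2 and WT1, the mice with 20 cells of both, cDC2-like cells held 1.51 more Cybb (SE 0.0855, adjusted p = 2.06e-12) and less Ncf4, by -1.41 (SE 0.0819, adjusted p = 3.35e-12), than cDC1-like cells, in 3 of 3 mice. Cyba (-0.29, adjusted p = 0.264), Ncf1 (-0.20, adjusted p = 0.0806) and Rac2 (0.16, adjusted p = 0.220) did not pass. The 2 of 5 members called stand beside 18.0% of all genes. Both calls were also made with cells thinned to 1000 UMIs. Of 20 pathway genes 5 were higher, including Rap1a, a small GTPase that copurifies with the flavocytochrome (0.78), and Prkcd (0.70), and 2 were lower, Pak1 (-0.66) and Vav1, a Rac activator (-0.23). The median was 0.08 against -0.01 over all genes. Leaving out KO2 cut the genes called from 1702 to 876 and left the 2 members called.

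Compared with mature DC-like cells of dLN, cDC2-like cells held more Cybb (1.29, SE 0.117, adjusted p = 2.90e-16) and Rac2 (0.57, SE 0.0976, adjusted p = 1.35e-06) and less Cyba (-1.09, SE 0.228, adjusted p = 6.78e-05) and Ncf1 (-0.70, SE 0.120, adjusted p = 1.55e-06), in 3 of 3 mice each. Ncf4 did not pass (-0.02, adjusted p = 0.809). These are 4 of 5 members beside 32.1% of all genes. Without KO1 the Cyba difference fell to -0.63 and was not called (adjusted p = 0.156), and with thinned cells neither Cyba (-0.83, adjusted p = 0.0649) nor Ncf1 (-0.36, adjusted p = 0.0837) was. Of 21 pathway genes 10 were higher and 3 lower, with a median of 0.23 against 0.04 over all genes. Arhgdib (1.61), Rap1a (1.42) and Prdx6 (1.11) were higher, and Prex1, a Rac activator, was lower (-0.56).

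Against pDC-like cells of dLN, cDC2-like cells held less of every member. Differences were -1.17 for Cybb (SE 0.140, adjusted p = 3.36e-09), -1.28 for Ncf1 (SE 0.112, adjusted p = 5.91e-13), -0.35 for Ncf4 (adjusted p = 2.16e-04) and -3.12 for Rac2 (SE 0.145, adjusted p = 2.29e-22), and -0.41 for Cyba (adjusted p = 0.0489), in 3 of 3 mice. All 5 members passed beside 29.4% of all genes. The Cyba call was lost without KO1 (-0.11, adjusted p = 0.706), without KO2 (-0.55, adjusted p = 0.0600), by limma-voom, without the filter on low genes, without the mouse term and with thinned cells. Leaving out KO2 cut the genes called from 2656 to 1604. Of 21 pathway genes 7 were higher, among them Rac1 (0.76) and Pak1 (0.55), and 6 lower, led by Hvcn1 (-1.29) and Prkca (-1.20), with a median of 0.01 against -0.03 over all genes.

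Against B-like cells of dLN, cDC2-like cells held more Cybb (0.55, SE 0.0912, adjusted p = 3.96e-05) and less Ncf1 (-0.22, adjusted p = 0.0174), Ncf4 (-0.87, adjusted p = 3.75e-10) and Rac2 (-2.50, adjusted p = 8.02e-14), and Cyba did not pass (0.17, adjusted p = 0.414). These are 4 of 5 members beside 41.5% of all genes. With cells thinned to 1000 UMIs the Cybb difference was 0.19 (adjusted p = 0.241) and not called, so at matched depth more Cybb in cDC2-like than B-like cells was not shown. Ncf1 was called neither then nor without KO1 (-0.18, adjusted p = 0.107) or KO2 (-0.21, adjusted p = 0.113), while Cyba passed without KO1 (0.50, adjusted p = 0.00492). Of 21 pathway genes 12 were higher and 5 lower, with a median of 0.26 against 0.05 over all genes. Prdx6 (1.01), Rac1 (0.97) and Prkcd (0.96) were higher, and Hvcn1 (-1.91) and Arhgdib (-0.72) lower.

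B-like cells of dLN held more Cybb (0.95, SE 0.0346, adjusted p = 9.41e-25), Cyba (0.63, SE 0.0693, adjusted p = 3.51e-10), Ncf1 (0.70, SE 0.0335, adjusted p = 8.43e-21) and Ncf4 (0.60, SE 0.0369, adjusted p = 2.34e-17) than CD8 T-like cells and less Rac2 (-0.28, SE 0.0669, adjusted p = 5.60e-04). Each direction was seen in 4 of 4 mice. All 5 members passed beside 49.1% of all genes. The Rac2 call was lost by limma-voom (-0.09, adjusted p = 0.114) and with thinned cells (-0.18, adjusted p = 0.132). Of 17 pathway genes 7 were higher and 5 lower, with a median of 0.02 against -0.01 over all genes. Hvcn1 (1.61), Prkcb, a kinase of B cell receptor signalling (0.82), and BC017643, which encodes the chaperone Eros that gp91phox needs (0.48), were higher. In these nodes B-like cells thus held transcripts of all 5 members.

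**Figure D3:**
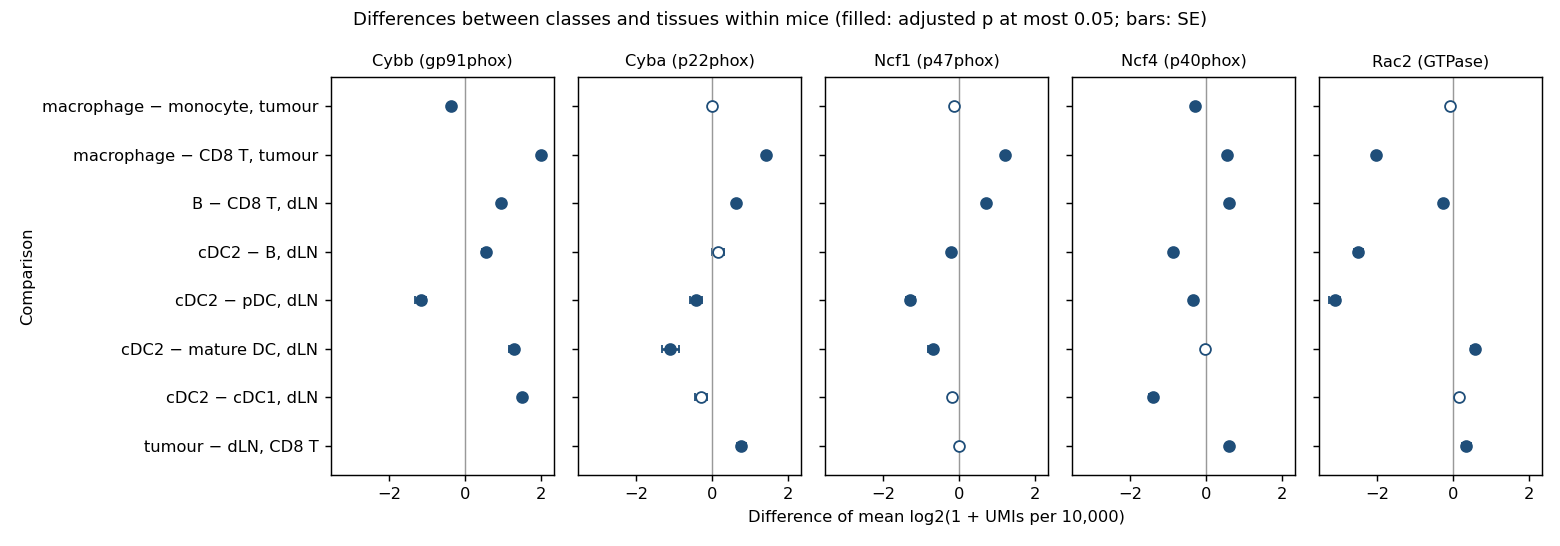
Differences of mean log2(1 + UMIs per 10000) between classes or tissues within mice, 1 panel per subunit, with the SE as bars and filled points where the adjusted p was at most 0.05. Cybb stands at 1.51 and Ncf4 at -1.41 for cDC2-like minus cDC1-like cells of dLN, and Rac2 lies left of 0 in the contrasts of another class with CD8 T-like, B-like or pDC-like cells.

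CD8 T-like cells of the tumour were set against those of dLN in KO1, KO2 and WT1, since WT2 gave 8 such tumour cells. Cyba was 7.36, 8.49 and 9.16 UMIs per 10000 in the tumour against 4.205, 4.55 and 4.91 in dLN. Ncf4 was 1.30, 1.20 and 1.34 against 0.448, 0.415 and 0.464. Rac2 was 18.3, 17.5 and 16.9 against 13.1, 12.9 and 13.9. For these 3 members every tumour value lay above every dLN value. Differences were 0.78 for Cyba (SE 0.124, adjusted p = 1.23e-05), 0.60 for Ncf4 (SE 0.0730, adjusted p = 1.87e-07) and 0.35 for Rac2 (SE 0.113, adjusted p = 0.0165), while Ncf1 did not pass (0.01, adjusted p = 0.865). Cybb, at 0.0377 ± 0.0194 in the tumour (SD, n = 3), was too rarely seen to be tested.

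This was 3 of 4 members tested beside 33.3% of all genes. The Rac2 call was lost without KO1 (0.28, adjusted p = 0.138), without WT1 (0.40, adjusted p = 0.0745) and with cells thinned to 1000 UMIs (0.48, adjusted p = 0.177), and the Cyba call with thinned cells (0.52, adjusted p = 0.105). Only Ncf4 was then still called. Markers of monocytes moved with the tissue: the summed level of the 6 monocyte markers in these cells was 20.9, 19.6 and 14.4 in the tumour and 6.15 to 9.65 in dLN, with 2 or 3 of the 6 at 0, and the 6 macrophage markers summed to 1.63, 0.0872 and 0.511 against 0.129 to 1.00. Their part in the result was not tested. Of 16 pathway genes 7 were higher and 0 lower, with a median of 0.16 against 0.06 over all genes. Arhgdia, a relative of Arhgdib (0.77), Rac1 (0.64) and Rap1a (0.63) led them. Depth moved with the tissue too, with medians of 7608 and 5371 UMIs in CD8 T-like cells of the tumour and of dLN.

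**Figure D4:**
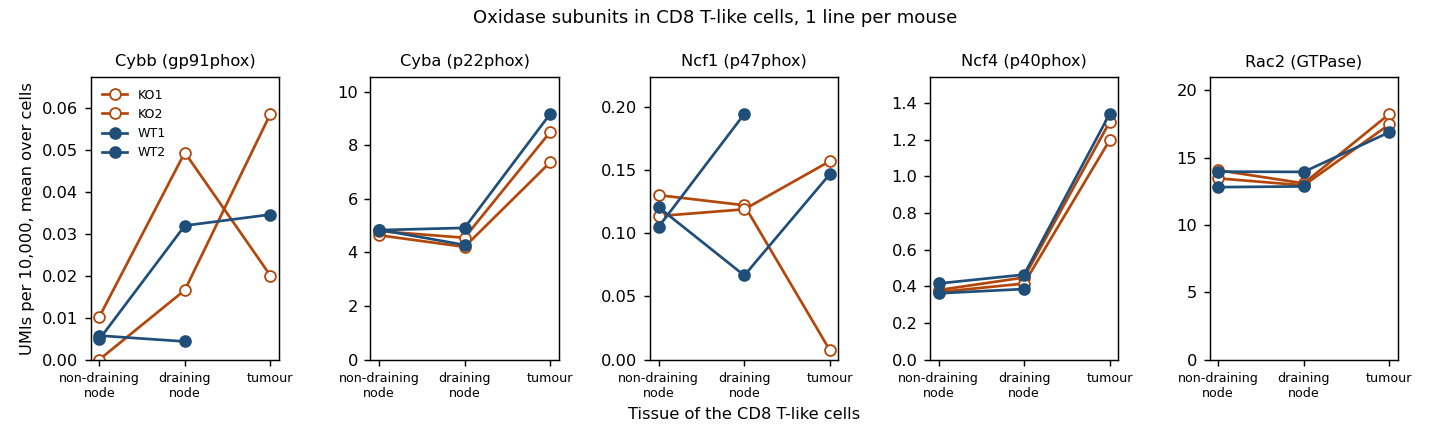
Levels of the 5 subunits (UMIs per 10000, linear axes starting at 0) in CD8 T-like cells by tissue, 1 line per mouse with WT mice filled; WT2 has no tumour point. Ncf4 lies between 0.385 and 0.464 in dLN and between 1.20 and 1.34 in the tumour, and Cybb is at most 0.0585.

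Between the 2 nodes no member was called in any of the 5 classes compared, in 22 tests (limma). The percentage of all genes called was 0 in B-like, CD4 T-like and mature DC-like cells, 0.0143 in CD8 T-like cells and 0.0594 in pDC-like cells. Member differences, dLN minus ndLN, ran from -0.24 to 0.27, with a lowest adjusted p of 0.735, and 1 member had an unadjusted p under 0.05. By limma-voom also 0 members were called. That member was Cybb in mature DC-like cells, higher in dLN in 4 of 4 mice (0.14, SE 0.0441, adjusted p = 0.735). To be tested, a gene needed a UMI in 5% of the cells of either node. Cybb met this only in dLN, with a share of 0.0526, against a mean over mice of 2.54% in ndLN. The filter thus favoured this direction, which is not read as a difference. All 4 mice also had the same direction for Ncf1 in mature DC-like cells (higher in dLN), for Cyba and Ncf4 in pDC-like cells (higher and lower) and for both in CD8 T-like cells (lower and higher), and none of these passed. Of the pathway list 0 of 86 tests passed.

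Whether the KO genotype went with other levels of the subunits was asked in 16 comparisons of KO with WT mice, with 2 mice per genotype. Among these, Havcr2 itself was called lower only in tumour macrophage-like cells and in cDC1-like cells of dLN and ndLN (limma). In B-like, CD4 T-like, CD8 T-like, mature DC-like and pDC-like cells of the nodes, WT mice held 0.102 UMIs of Havcr2 per 10000 or less. A loss of TIM-3 is therefore not shown in those classes. No member was called in 70 tests (limma; lowest adjusted p = 0.531), and 1 had an unadjusted p under 0.05. By limma-voom also 0 members were called. These fits had no mouse or channel term, and the genotype and tissue groups of a class shared 1 estimate of the spread. Differences, KO minus WT, ran from -0.31 to 0.37, with a median of 0.00 and SE of 0.0373 to 0.310. Small differences were thus not detectable in the noisier classes. The background was as low: 32 genes were called over the 16 comparisons. In the draining node the percentage of genes called was 0.0166 in B-like, 0 in CD4 T-like and CD8 T-like, 0.0224 in cDC1-like, 0 in cDC2-like, 0.254 in mature DC-like and 0.0124 in pDC-like cells. In ndLN it was 0 in B-like, CD4 T-like, CD8 T-like and mature DC-like cells, 0.0224 in cDC1-like and 0.0247 in both cDC2-like and pDC-like cells. In the tumour it was 0.0311 in macrophage-like and 0.0125 in monocyte-like cells. Of the pathway list 0 of 291 tests passed.

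By member, KO minus WT was positive in 3 of 8 comparisons for Cybb, 5 of 16 for Cyba, 10 of 14 for Ncf1, 7 of 16 for Ncf4 and 11 of 16 for Rac2. Its lowest and highest differences were -0.30 and 0.24 for Cybb, -0.31 and 0.13 for Cyba, -0.07 and 0.14 for Ncf1, -0.15 and 0.07 for Ncf4 and -0.19 and 0.37 for Rac2. The comparisons share mice and are not independent. In tumour monocyte-like cells Cybb differed by 0.02 (SE 0.165, adjusted p = 0.998), with KO mice at 6.75 and 5.27 and WT mice at 7.005 and 4.95. Those values follow the droplet channel, with mouse 1 above mouse 2 in both genotypes.

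Cybb in tumour macrophage-like cells was 4.40 and 3.83 in KO1 and KO2 and 3.67 and 3.21 in WT1 and WT2, so both KO mice lay above both WT mice. The difference of 0.21 (SE 0.104) did not pass in limma (adjusted p = 0.722). With the droplet channel as a term its SE fell to 0.0594 and it passed (adjusted p = 0.0234), and then 549 genes, 5.69% of those tested, passed too. In no other setting tried did it pass. Over the genes tested, WT1 minus WT2 and KO1 minus KO2 correlated here with r = 0.64, the highest of the 16 comparisons. The main fit did not use this pairing by channel, and the fit with the channel left 1 residual degree of freedom. Rac2 in mature DC-like cells of dLN was 0.372 and 0.906 in the KO mice and 0.433 and 0.191 in the WT mice, ranges that overlapped. It differed by 0.19 (SE 0.0853, adjusted p = 0.531) and passed only without KO1 (0.31, adjusted p = 0.0148), where KO2 alone stood for the KO mice and was assumed to vary like the other groups of the class.

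Cybb in mature DC-like cells of dLN had a UMI in too few cells of the class to be tested with the filter. Its levels were 0.581 and 0.637 in KO1 and KO2 and 0.0835 and 0.0748 in WT1 and WT2, so both KO mice lay above both WT mice, over 43, 27, 220 and 166 cells. In ndLN the levels were 0.0313, 0.121, 0.0931 and 0.0306, and the genotypes overlapped. Without the filter the dLN difference was 0.25 (SE 0.0393, adjusted p = 0.312). With no margin on the gates it passed the filter and the test (0.36, SE 0.0633, adjusted p = 0.00646). Beside it, the 6 monocyte markers summed to 1.13 and 0.958 UMIs per 10000 in these cells of the KO mice and to 0.107 and 0.0889 in the WT mice, with 1 or 2 of the 6 at 0 in each. The 4 cDC2 markers summed to 2.77 and 2.21 against 2.30 and 2.01, and the 6 macrophage markers to 0.422 and 1.24 against 1.03 and 0.537. Their part in the result was not tested.

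**Figure D5:**
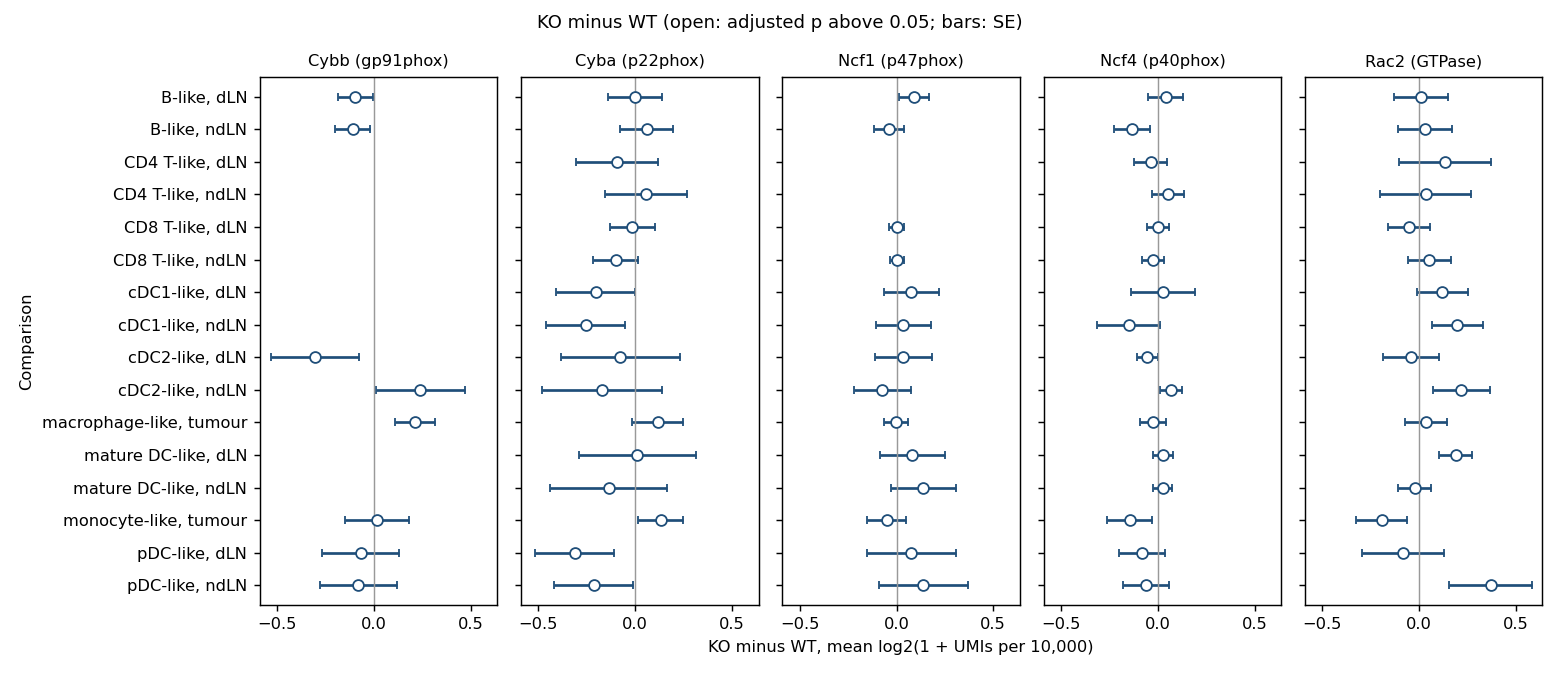
KO minus WT difference of mean log2(1 + UMIs per 10000) for each subunit in each class and tissue tested, with the SE as bars; open points are adjusted p-values above 0.05. All 70 points are open and lie between -0.31 and 0.37.

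The difference between the nodes in the KO minus WT difference was tested in 7 classes. This fit had no mouse term, so both nodes of a mouse entered as independent samples and their pairing was not used. Of 30 member tests 0 were called (limma; lowest adjusted p = 0.914) and 0 had an unadjusted p under 0.05, and 0 were called by limma-voom. The percentage of all genes called was 0.0123 in cDC2-like cells and 0 in the other 6 classes. Only Rac2 in mature DC-like cells passed in any setting, without KO1 (0.37, adjusted p = 0.0437), again with KO2 as the lone KO mouse.

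Genes whose mean levels ran most like those of each member were named over 19 class and tissue means and 11385 genes, by Pearson's r, as a description. The means share libraries, depth and mice. For Cybb they were Rnf13 (r = 0.93), Zeb2os (0.92), Zeb2 (0.91), Hpse (0.91) and Slc29a3 (0.90). For Cyba they were Tmbim4 (0.92), Znfx1 (0.91), Cstb (0.87), Sat1 (0.87) and Atp6v1b2 (0.87). Ncf1 ran with Ell2 (0.92), Ptprj, Blcap and Gpr137b-ps (0.87 each) and Rhob (0.85). Ncf4 ran with Ankfy1 (0.87), Tirap (0.85), Jdp2 (0.82), Fanca and Plin2 (0.81 each). Rac2 ran with Lbr (0.91), Ypel3 (0.89), Acap1 and S1pr4 (0.88 each) and Zfp592 (0.87). Among the members themselves r was 0.71 for Cyba and Ncf1, 0.67 for Cybb and Ncf1, 0.51 for Cyba and Ncf4, 0.13 for Cybb and Ncf4, 0.08 for Cybb and Rac2 and -0.38 for Cyba and Rac2. No member was among the 5 genes most like another.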

How the data were processed

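The unit is a natural log value: the authors deposited ln(1 + 10000 × UMIs of a gene / UMIs of the cell) for each cell, with its mouse and tissue, and 100% of the values were whole UMIs within 0.01 when transformed back. Cell Ranger 3.0.2 and mm10 are named, per the submitters' processing notes; filters on tags, cells and genes are not stated there. The members and lists were chosen with earlier results of these data known. Genes named are Havcr2, the members, up to 8 pathway genes past the threshold per comparison by size, and the 5 genes of most like pattern per member. Values of 1 listed gene are not reported here.

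Cells were gated by the highest mean log2 level of a marker list, with at least 2 markers and a margin of 0.5 (log2) over the next; 368 cells lay within 0.25 above that margin and 437 below. No doublet was called or removed (0 cells), and 65 barcodes occurred in both channels. For each mouse the mean of log2(1 + UMIs per 10000) over cells entered limma 3.58.1 (trend, two-sided) in R 4.3.3, in samples of at least 20 cells. Benjamini-Hochberg adjustment covered all genes with a UMI in 5% of the class's cells. In comparisons within mice, 5% of the cells of either side was enough. Cybb, for one, entered cDC2-like minus cDC1-like, macrophage-like minus CD8 T-like and B-like minus CD8 T-like cells through its high side only. For cDC1-like and cDC2-like KO comparisons, which have no value at 20 cells, the minimum of 10 was set after cell numbers were seen. The scripts were tested on simulated data. Python 3.11.15, numpy 2.4.6, pandas 2.3.3 and scipy 1.17.1 were used.

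The labels put 1 WT and 1 KO mouse in each channel, which pairs WT1 with KO1 and WT2 with KO2; deviations of mice of a channel correlated with a median r of 0.11 over 16 comparisons (-0.15 to 0.64). Alternatives were a pseudocount of 0.1, limma-voom on summed UMIs, no filter on low genes, the channel (or no mouse) as a term, each mouse left out, gate margins of 1 and 0 and, within mice, cells thinned to 1000 UMIs, which left out 107 shallower cells.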

Additional observations from a re-analysis of the deposited data

How the results depend on the processing

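Members called in the KO minus WT comparisons with 20 cells went from 0 to 1 with the channel as a replicate block (Cybb in tumour macrophage-like cells, 0.21, adjusted p = 0.0234) and to 1 with no gate margin (Cybb in mature DC-like cells of dLN), and from 0 to 1 over the fits without 1 mouse, which leave 1 mouse in a genotype. In the difference between the nodes they went from 0 to 1 over those fits. The block changed no other member's call in KO minus WT; without the mouse term Cyba in cDC2-like minus pDC-like cells was lost (adjusted p = 0.136). With cells thinned to 1000 UMIs the members called went from 4 to 2 for cDC2-like minus mature DC-like, from 5 to 3 for cDC2-like minus pDC-like (in both, Ncf4 fell below the filter and was not tested), from 4 to 2 for cDC2-like minus B-like cells and from 3 to 1 for CD8 T-like cells of tumour minus dLN; all-gene calls fell with them, from 5108 to 1128 (macrophage-like minus monocyte-like), 4185 to 1206 (macrophage-like minus CD8 T-like), 1702 to 277 (cDC2-like minus cDC1-like), 2849 to 687, 2656 to 675, 3524 to 914, 2737 to 530 (in the order of the members above) and 3517 to 1402 (B-like minus CD8 T-like). Thinning leaves fewer UMIs, and a lost call there is not a call of no difference.

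For single members, 380 alternative values kept their direction and side of the threshold, 21 lost a call, 7 gained one and 20 changed sign, each of them uncalled in the main analysis. Sign changes were Cyba in macrophage-like minus monocyte-like cells (0.0538 by limma-voom, 0.0363 with no margin, 0.0765 thinned, -0.0289 to 0.0238 without 1 mouse), Rac2 (-0.0271 at pseudocount 0.1) and Ncf1 (0.0764 thinned) in cDC2-like minus cDC1-like cells, and, without 1 mouse, Ncf4 in cDC2-like minus mature DC-like cells (-0.0647 to 0.0216), Cyba in cDC2-like minus B-like cells (-0.0772 to 0.505) and Ncf1 in CD8 T-like cells of tumour minus dLN (-0.0206 to 0.0548). In KO minus WT macrophage-like cells they were Ncf1 (0.0589 at pseudocount 0.1, 0.00402 at the stricter margin, 0.00642 with none, -0.0566 to 0.0558 without 1 mouse), Ncf4 (0.0105 at pseudocount 0.1, -0.0587 to 0.00914 without 1 mouse) and Rac2 (-0.0595 to 0.132 without 1 mouse). The cause was not tested. Passing elsewhere were Ncf1 in macrophage-like minus monocyte-like cells by limma-voom (-0.28, adjusted p = 0.00326) and, in cDC2-like minus cDC1-like cells, Ncf1 at pseudocount 0.1 (-0.80, adjusted p = 0.00619) and Rac2 by limma-voom (0.66, adjusted p = 0.0145) or with no margin (0.27, adjusted p = 0.0240). Macrophage-like minus cDC2-like cells of the tumour, other classes of tumour minus dLN and the stricter margin in comparisons with cDC2-like or tumour CD8 T-like cells gave no value, because fewer than 3 mice had 20 cells.

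Lower depth limits what is shown: lymphocytes and neutrophil-like cells held the fewest UMIs, 2 mice stood for each genotype, and rare classes gave 11 to 56 cells per mouse.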
